A study of Mus musculus with 106 samples.

Results

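The peaks of 2 histone marks, H3K27ac and H3K4me3, were compared in unstimulated bone marrow–derived macrophages (BMDM) of control and diabetic mice. The members were the 22 peak lists that the labels assign to unstimulated BMDM, of 70 peak lists and 106 samples in the whole series, and they formed 11 pairs in which the H3K27ac and the H3K4me3 list shared disease group and replicate number. There were 6 control and 5 diabetic pairs, and diabetic replicate 3 was not analysed here. All mice were wild-type C57BL/6J, 12 to 14 weeks old. Diabetic mice had been given streptozotocin, which destroys insulin-producing beta cells, intraperitoneally at 42 to 45 mg per kg on each of 5 days, and marrow was taken 6 weeks after the last injection if blood glucose exceeded 13.9 mmol/L. Marrow of both groups was then grown for 7 days in medium with 5 mmol/L glucose and L929-conditioned medium, a source of macrophage colony-stimulating factor, and kept in medium alone for 16 h. The diabetic cells had therefore spent a week at normal glucose before fixation. Each library came from a mixed culture, so fewer cells with a mark and less mark per cell cannot be told apart.

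H3K27ac is laid down by the acetyltransferases p300 and CBP and marks promoters and enhancers in use. H3K4me3 is laid down by the SET1 and MLL methyltransferase complexes around transcription start sites, above all at CpG islands, where some of these complexes are held through CXXC domains that bind unmethylated CpG. In macrophages the lineage factor PU.1 opens many enhancers far from promoters, and genes of other lineages often keep a CpG island with H3K4me3 but little acetylation. The comparison therefore asked which promoters and which distal sites carried 1 mark or both, and how far the order of peaks within a list was shared between the marks.

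A promoter was taken as the 1000 bp to either side of an annotated start site of a protein-coding gene, and a distal site lay further than that from every annotated start site. Ranks used the −log10 p that the peak caller gave each peak within its own library, since the height of a peak cannot be set against that of another library. The sequences below are from sites with the lowest p in each direction, leaving out Cenpo and Ptrhd1, which share 1 window, and the CpG dinucleotides in them are in capitals. They were read from the RefSeq GRCm38.p6 genome, and the gene sequences give the 250 bases that precede the start site on the strand of the gene. The promoters of Sugt1 and Ap5s1 ranked high for H3K27ac and low for H3K4me3, and those of Dll4 and Ahnak2 the other way around.

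Sugt1 (chr14:79587441-79587690, plus strand): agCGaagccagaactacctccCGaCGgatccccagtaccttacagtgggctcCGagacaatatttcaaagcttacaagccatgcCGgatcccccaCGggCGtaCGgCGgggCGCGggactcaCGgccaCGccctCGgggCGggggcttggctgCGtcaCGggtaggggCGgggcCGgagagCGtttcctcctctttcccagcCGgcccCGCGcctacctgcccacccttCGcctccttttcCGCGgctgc

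Ap5s1 (chr2:131210120-131210369, plus strand): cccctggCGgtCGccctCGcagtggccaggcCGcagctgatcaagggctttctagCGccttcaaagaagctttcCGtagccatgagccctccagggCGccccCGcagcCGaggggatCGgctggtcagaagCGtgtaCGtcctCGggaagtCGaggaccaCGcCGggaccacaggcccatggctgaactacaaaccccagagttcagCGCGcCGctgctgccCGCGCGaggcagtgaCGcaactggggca

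Dll4 (chr2:119325534-119325783, plus strand): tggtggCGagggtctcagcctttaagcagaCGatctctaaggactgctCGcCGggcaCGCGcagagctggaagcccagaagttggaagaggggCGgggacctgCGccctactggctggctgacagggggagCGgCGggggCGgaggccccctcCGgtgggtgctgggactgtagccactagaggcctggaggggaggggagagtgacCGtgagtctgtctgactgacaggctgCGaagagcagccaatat

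Ahnak2 (chr12:112781012-112781261, minus strand): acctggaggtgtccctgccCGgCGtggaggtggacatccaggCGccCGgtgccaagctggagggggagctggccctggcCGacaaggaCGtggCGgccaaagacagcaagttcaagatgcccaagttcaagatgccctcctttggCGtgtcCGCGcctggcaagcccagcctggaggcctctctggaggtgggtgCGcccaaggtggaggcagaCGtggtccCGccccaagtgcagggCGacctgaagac

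These 4 stretches held 26, 23, 14 and 14 CpG dinucleotides. The observed number of CpG over that expected from the C and G content (CpG ratio) was 0.910 for Sugt1, 0.816 for Ap5s1, 0.557 for Dll4 and 0.501 for Ahnak2. The middle 300 bases of 4 distal regions follow, the first pair ranked high for H3K27ac and the second pair for H3K4me3.

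distal region near Acta1 (chr8:123883186-123883485, plus strand): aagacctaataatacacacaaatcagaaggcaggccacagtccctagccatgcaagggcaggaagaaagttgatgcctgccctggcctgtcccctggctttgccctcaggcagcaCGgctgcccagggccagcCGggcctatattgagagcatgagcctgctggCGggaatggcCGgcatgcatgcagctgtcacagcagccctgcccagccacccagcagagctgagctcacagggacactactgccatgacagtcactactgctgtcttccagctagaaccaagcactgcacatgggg

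distal region near Cstad (chr2:30658330-30658629, plus strand): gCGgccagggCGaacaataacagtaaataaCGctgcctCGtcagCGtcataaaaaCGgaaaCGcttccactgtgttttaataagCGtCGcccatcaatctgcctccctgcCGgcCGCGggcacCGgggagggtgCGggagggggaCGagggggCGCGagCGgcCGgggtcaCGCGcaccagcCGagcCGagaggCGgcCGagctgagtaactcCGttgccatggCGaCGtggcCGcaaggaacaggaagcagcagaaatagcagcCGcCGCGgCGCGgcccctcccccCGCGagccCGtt

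distal region near Calcoco1 (chr15:102692699-102692998, plus strand): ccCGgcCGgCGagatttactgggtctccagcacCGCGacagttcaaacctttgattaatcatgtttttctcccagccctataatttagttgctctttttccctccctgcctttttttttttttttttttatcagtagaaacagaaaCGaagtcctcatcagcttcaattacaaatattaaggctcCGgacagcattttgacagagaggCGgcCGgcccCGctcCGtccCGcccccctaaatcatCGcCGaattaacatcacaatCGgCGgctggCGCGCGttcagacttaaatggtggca

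distal region near Gm21863 (chr12:20233233-20233532, plus strand): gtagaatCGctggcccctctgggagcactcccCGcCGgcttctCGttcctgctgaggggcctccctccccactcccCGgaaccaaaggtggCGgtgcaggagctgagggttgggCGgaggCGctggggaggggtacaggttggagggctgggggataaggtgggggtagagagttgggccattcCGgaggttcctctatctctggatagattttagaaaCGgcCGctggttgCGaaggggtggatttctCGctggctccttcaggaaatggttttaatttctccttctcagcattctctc

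Among these the H3K27ac pair held 4 CpG near Acta1 and 37 near Cstad, and the H3K4me3 pair held 19 near Calcoco1 and 13 near Gm21863. The CpG ratios were 0.152, 1.11, 1.13 and 0.495 in the same order.

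The lists held between 54313 and 212718 peaks. H3K27ac lists had 111612 ± 42841 (SD, n = 11) and H3K4me3 lists 131699 ± 50942 (n = 11). The log2 ratio of H3K27ac to H3K4me3 peak number within a pair ran from −1.43 to 0.52, so shares were computed over the 10000 peaks with the highest −log10 p of each list unless stated. The cells were checked against their label. Of 17 macrophage transcription factors, 16 had a promoter peak in every H3K27ac list and 15 to 16 did in the H3K4me3 lists. Surface and lysozyme markers were less well covered, with 11 to 17 of 19 in the H3K27ac lists and 6 to 16 in the H3K4me3 lists. These full-list counts do not set the cells apart from lineage-depleted marrow of the same series. Its H3K27ac lists held 14 to 16 of the factors and 9 to 16 of the surface and lysozyme markers. Among the top H3K27ac peaks, 14 to 16 factors were found in unstimulated BMDM and 8 to 12 in that marrow. For surface and lysozyme markers these counts were 2 to 7 and 0 to 3. The promoter of Msr1, a scavenger receptor, was in 0 lists of either mark and that of Lyz2, which encodes lysozyme, in 2 lists of each. In 3 H3K27ac libraries labelled unstimulated, control replicates 1, 5 and 6, the distal peaks overlapped more with BMDM stimulated with lipopolysaccharide and interferon-γ (LPS+IFN-γ) than with the other unstimulated libraries. The share was the percent of distal 1 kb bins in either of 2 libraries that both held, averaged over libraries. These shares were 19 against 17.3%, 27.2 against 23.9% and 31.7 against 27.6%. Such a share depends on the number of bins, which was 1961 in control replicate 1 and 885 to 1433 in the other unstimulated H3K27ac libraries. In the other 8 libraries the unstimulated share was higher by 1.26 to 4.53 percentage points. Conversely, the H3K27ac library labelled LPS+IFN-γ control replicate 5 overlapped more with unstimulated libraries, 32.4 against 26.3%. Whether any of these labels were exchanged was not tested. The main shares and numbers of calls are therefore also given without control pairs 1, 5 and 6. Gene list counts were made without control pairs 5 and 6 only.

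At promoters the 2 marks mostly occupied the same genes. Within a pair, 7112 ± 544 genes (SD, n = 11) had a top peak of both marks, which was 81.0 ± 3.55% of the genes with H3K27ac and 78.8 ± 4.13% of those with H3K4me3. Another 1664 ± 276 genes had H3K27ac alone and 1909 ± 340 had H3K4me3 alone. The overlap was lowest in control pair 1, with 6016 genes, and highest in control pair 4, with 8008. In the full lists 14255 ± 966 genes had both marks, 542 ± 272 had H3K27ac alone and 1662 ± 960 had H3K4me3 alone.

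A gene was counted as carrying a mark when at least 9 of the 11 libraries had a promoter peak and as lacking it when at most 2 did. On the top peaks, 5761 of 21938 protein-coding genes (26.3%) carried both marks, 219 (0.998%) carried H3K27ac only, 576 (2.63%) carried H3K4me3 only and 10032 carried neither. The other 5350 (24.4%) were in between. In the full lists 12916 genes (58.9%) carried both, 4118 (18.8%) were in between, 144 carried H3K4me3 only and 7 carried H3K27ac only by this rule. Those 7 were Ebi3, Fcrlb, Fndc7, Glipr1, Mmp19, S100a2 and Scimp, named here because they were so few. Ebi3 encodes a subunit of the cytokines interleukin-27 and interleukin-35, Mmp19 a matrix metalloproteinase and Scimp an adaptor of antigen-presenting cells. Ebi3, Fndc7 and Scimp had a promoter peak in 10 H3K27ac lists and 2 H3K4me3 lists, and Fcrlb in 10 and 1.

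Of the 144 genes with H3K4me3 only in the full lists, 6 are given as examples chosen after their values were seen. Shh and Wnt3a encode morphogens, Sox3 and Osr1 developmental transcription factors, Nanog a pluripotency factor and Grin2b a neuronal glutamate receptor subunit. Shh, Wnt3a, Sox3 and Osr1 had a promoter peak in 11 of 11 H3K4me3 lists and in 1 or 2 H3K27ac lists. Nanog and Grin2b were in 10 H3K4me3 lists, and in 2 and 1 H3K27ac lists.

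Among strong peaks, H3K27ac lists held more distal sites and H3K4me3 lists reached slightly more promoters. In the H3K27ac libraries the distal share of the top 10000 peaks ran from 8.87 to 19.7% with a median of 12.8%, and in the H3K4me3 libraries from 7.26 to 12.5% with a median of 10.2%. The ranges overlapped, but H3K27ac was higher in 10 of 11 pairs. The means were 12.8 ± 2.90% and 9.83 ± 1.89% (SD, n = 11 each), a difference of 2.97 ± 2.11 percentage points (paired exact permutation test over 2048 sign arrangements, two-sided p = 0.00195, Benjamini-Hochberg adjusted over 4 measures p = 0.00781). The difference was 2.25 points without control pairs 1, 5 and 6 (adjusted p = 0.0469). It was larger in pairs whose H3K27ac list was shorter than the H3K4me3 list. Against the log2 ratio of list lengths, Pearson's r was −0.656 (permutation p = 0.0282, adjusted over 2 relations p = 0.0563) and Spearman's rho was −0.782 (permutation p = 0.00694) over 11 pairs. Without the 2 pairs farthest from the median ratio r was −0.606, and the fitted difference at equal list length was 2.37 points.

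The direction depended on which peaks were compared. In the full lists the distal share was lower for H3K27ac by −2.03 points (adjusted p = 0.260), and among the 10000 peaks with the highest fold enrichment it was lower by −10.75 points (adjusted p = 0.00195). The excess of distal H3K27ac thus held for the strongest peaks by −log10 p, but not over the full lists and not for peaks ranked by fold.

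Promoter peaks of strong rank reached 40.0 ± 1.71% of protein-coding genes for H3K27ac and 41.1 ± 1.42% for H3K4me3 (SD, n = 11 each). H3K4me3 was higher in 8 of 11 pairs, and the difference was −1.12 ± 1.26 points (paired exact permutation test, two-sided p = 0.0186, adjusted p = 0.0371). The call was lost without control pairs 1, 5 and 6 (−0.688 points, adjusted p = 0.148) and when windows of 500 bp were used (−0.988 points, adjusted p = 0.0703). It was also lost when control pair 1, 3 or 4 or diabetic pair 1, 4 or 5 was left out, with adjusted p values from 0.0547 to 0.0742 at differences from −1.17 to −0.953 points. With peaks ranked by fold the difference had the opposite sign, 6.19 points (adjusted p = 0.00195).

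**Figure D1:**
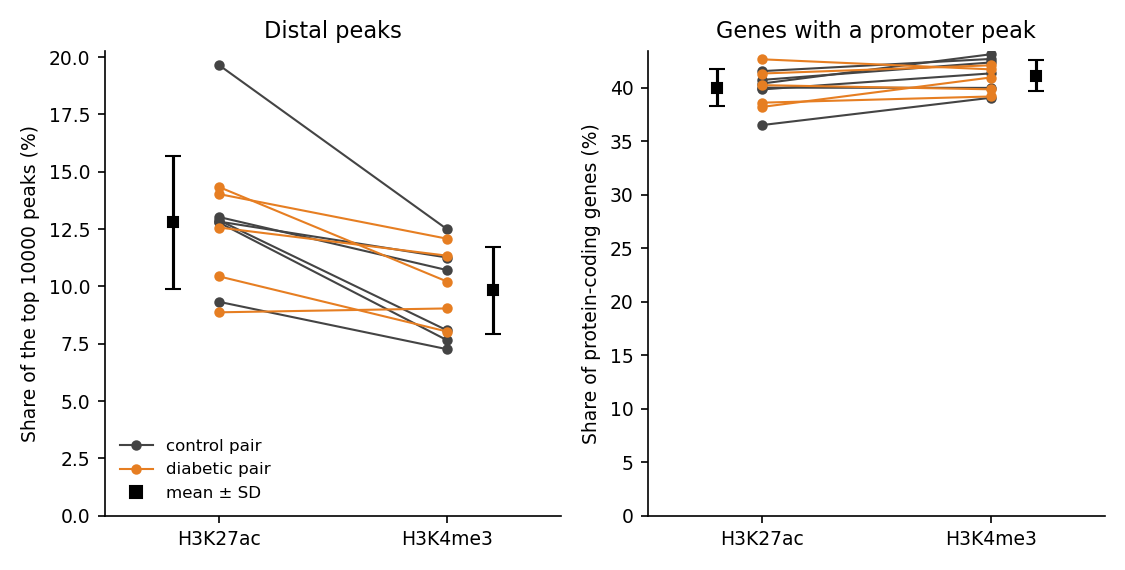
Left, the share of the top 10000 peaks of each library that lay over 1000 bp from every start site (%); right, the share of protein-coding genes with a promoter peak among the top 10000 (%). Each line joins the H3K27ac and H3K4me3 libraries of 1 pair (6 control, 5 diabetic) and squares give mean ± SD; 10 of 11 pairs fall from left to right in the distal panel, and 8 of 11 rise in the promoter panel.

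Peaks had similar widths and positions for both marks. Promoter peaks had a median width of 1086 ± 176 bp for H3K27ac and 988 ± 133 bp for H3K4me3 (SD, n = 11 each), a log2 ratio of 0.13 that did not pass the test (exact permutation test, adjusted p = 0.0807). It passed at a log2 ratio of 0.16 when control pair 5 or control pair 6 was left out (adjusted p = 0.0495 for each) and without control pairs 1, 5 and 6 (adjusted p = 0.0469). Distal peaks had median widths of 949 ± 255 and 853 ± 163 bp (adjusted p = 0.244). The summit nearest to a start site lay downstream of it in most genes, 78.2% for H3K27ac and 77.8% for H3K4me3, at a median distance of 140 ± 7.39 bp and 136 ± 10.8 bp (SD, n = 11 each). Within pairs it lay further downstream for H3K27ac in 9 and for H3K4me3 in 2, which was not tested.

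The order of promoters within a list was shared only in part between the marks. Over genes with a promoter peak of both marks in a pair, the Spearman correlation of their −log10 p was 0.602 ± 0.0909 (SD, n = 11 pairs) and ran from 0.441 in control pair 1 to 0.778 in control pair 4. H3K27ac libraries of different mice correlated with each other at 0.843 (mean of 55 pairs of libraries) and H3K4me3 libraries at 0.656 (55 pairs of libraries). The 2 marks in different mice correlated at 0.535 (110 pairs of libraries). The H3K4me3 libraries thus resembled each other less than the H3K27ac libraries did, and 0 of the 22 libraries had the other mark as its closest match. These are correlations across genes, which are not independent, and libraries of 1 pair share the input chromatin used as background. Restricted to the top 20000 peaks the mean within-pair correlation was 0.356, and on fold in place of −log10 p it was 0.327.

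**Figure D2:**
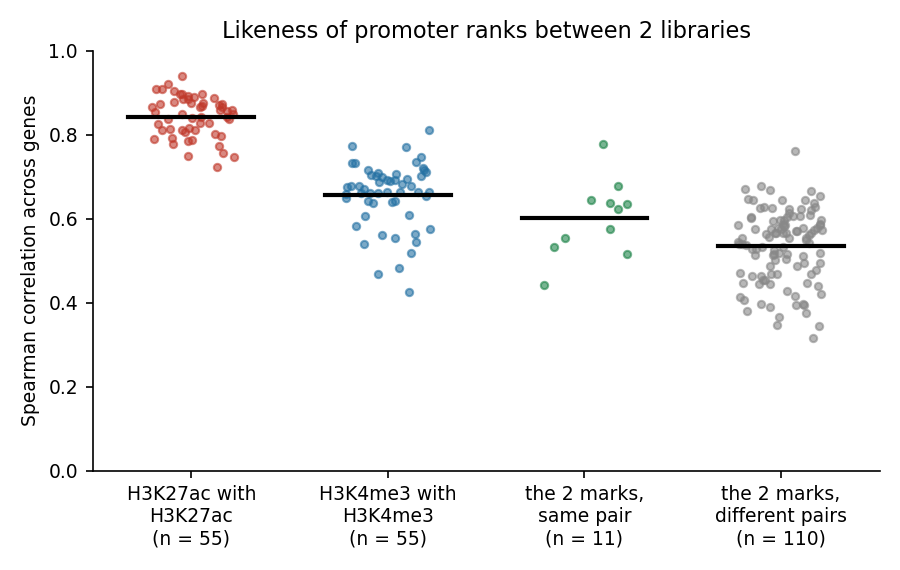
Spearman correlation across genes of promoter −log10 p between 2 libraries (vertical axis), with 1 point per pair of libraries and a bar at the mean. The means are 0.843 within H3K27ac, 0.656 within H3K4me3, 0.602 for the 2 marks of the same pair and 0.535 for the 2 marks of different pairs.

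To find the promoters that 1 mark favoured, each gene was given a rank score in each library, from 100 points for the promoter with the highest −log10 p to 0 points for those past position 13011, the number of genes with a promoter peak in the list with fewest. The scores of 15838 genes above 0 in at least 2 libraries were compared by limma with the pair as a block. A gene was called with an adjusted p under 0.05 (Benjamini-Hochberg) and a mean difference of at least 10 points. H3K27ac ranked higher at 3716 genes (23.5%), H3K4me3 ranked higher at 3743 (23.6%), and 8379 were not called. The median difference over all genes tested was 0.73 points. Because ranks within a list are relative, a promoter called for 1 mark had a higher place in that mark's order and not necessarily more of the mark. Without control pairs 1, 5 and 6 the counts were 3123 and 3128. The shares of 23.5% and 23.6% belong to the main setting. Gene list counts given below for other settings have no such share of all genes beside them.

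Among the 10 promoters with the lowest p for H3K27ac, the largest difference was at Sugt1, which encodes a co-chaperone of HSP90. Its lowest, median and highest scores were 71.7, 93.5 and 98.2 points in the H3K27ac libraries and 0, 7.25 and 52.4 points in the H3K4me3 libraries, with no overlap, and the difference was 76.3 ± 4.52 points (SE, n = 11 pairs; limma, adjusted p = 1.13e-06). Dcaf11, a substrate receptor of CUL4 ubiquitin ligases, scored 77.9, 94.0 and 98.7 points for H3K27ac and 0, 26.6 and 44.7 points for H3K4me3, again without overlap. Ap5s1, a subunit of the AP-5 adaptor complex of late endosomes, scored 35.2, 73.4 and 89.2 points against 0, 3.47 and 17.1 points. Others were Iba57, which acts in mitochondrial iron-sulfur cluster assembly, Atg101, which acts at the start of autophagy, the RNA-binding protein gene Unk, Armc5, and Cenpo and Ptrhd1, which share a promoter window and have the same values. The differences of these genes ran from 58.5 points for Cenpo and Ptrhd1 to 72.6 points for Iba57, and the ranges of the marks did not overlap in any of the 10. Each of the 10 still had an H3K4me3 promoter peak in 10 or 11 of the full lists.

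Among the 10 promoters with the lowest p for H3K4me3, the lowest was at Ahnak2. This gene, which encodes a giant scaffold protein, scored 20.8, 25.6 and 39.8 points for H3K27ac and 74.1, 92.8 and 99.7 points for H3K4me3 (lowest, median and highest), with no overlap, and the difference was −63.2 ± 2.63 points (SE, n = 11 pairs; limma, adjusted p = 1.23e-07). Its start site used here is 1 of several annotated ones and lies far downstream of the outermost one. Dll4, a Notch ligand of endothelium and of activated macrophages, scored 0, 12.2 and 25.8 points against 62.8, 82.2 and 92.3 points. The homeodomain gene Pitx3, known from dopaminergic neurons and the lens, scored 4.80, 19.6 and 25.6 points against 58.8, 87.9 and 97.0 points. None of the H3K27ac libraries reached the lowest H3K4me3 score at these 3 genes. The homeodomain genes Shox2 and Dlx1 differed by −54.1 and −50.5 points and the receptor phosphatase gene Ptpru by −62.7 points. Uaca, Mctp1, Baiap2l1, which acts on the actin cytoskeleton, and Hs3st1, a heparan sulfate sulfotransferase gene, differed by −46.6, −57.1, −61.6 and −59.4 points. The ranges overlapped only for Hs3st1 among the 10.

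Developmental transcription factors, whose expression was not examined here, were the list with the most one-sided order. All 20 of 20 ranked higher for H3K4me3 and 0 for H3K27ac, against 23.6% of all genes tested, with a median difference of −24.6 points beside 0.73 points over all genes. Neurog2, a proneural factor, scored 0, 10.2 and 31.6 points for H3K27ac and 42.1, 81.9 and 99.5 points for H3K4me3 (lowest, median and highest), without overlap. Its difference was −66.3 ± 4.64 points (SE, n = 11 pairs; limma, adjusted p = 1.75e-06), and Pax6, which acts in the eye and brain, differed by −63.8 points. The smallest difference of the list was −12.8 points at Pax7, the factor of muscle stem cells, which scored 0 in every H3K27ac library and up to 30.1 points for H3K4me3. Lhx2 had the highest H3K27ac rank score among those named, with a median of 33.3 points against 69.3 points for H3K4me3. It had a top H3K27ac peak in 8 of 11 libraries. In the full lists 7 of the 20 carried both marks and 13 were in between, so most had an H3K27ac peak in some libraries. Ranked by fold, 20 of 20 were again called for H3K4me3, and when only the upper 6505 positions were scored 4 were.

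Stem and progenitor genes, whose expression was not examined either, showed the same order. Of these, 10 of 12 ranked higher for H3K4me3 and 0 for H3K27ac, against 23.6% and 23.5% of all genes tested, with a median of −28.6 points. Hoxa9, a self-renewal factor, scored 0, 1.18 and 22 points for H3K27ac and 39.8, 69.9 and 98.4 points for H3K4me3, with no overlap and a difference of −63.7 ± 6.70 points (SE, n = 11 pairs; limma, adjusted p = 2.29e-05). Myb, a factor that differentiating macrophages turn off, scored 0, 15.3 and 26.4 points against 52.9, 77.7 and 99.3 points. Gata2 differed by −41.6 points and Kit, the stem cell factor receptor gene, by −24.9 points. Gfi1b had a median of 0 points for both marks and was not called. The promoters of this list are rarely among strong H3K27ac peaks in these cells, with 0 to 2 of 12 members in the top 10000 of an unstimulated H3K27ac list against 6 or more in the H3K4me3 lists. Over the upper 6505 positions 4 of the 12 were called, each for H3K4me3.

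**Figure D3:**
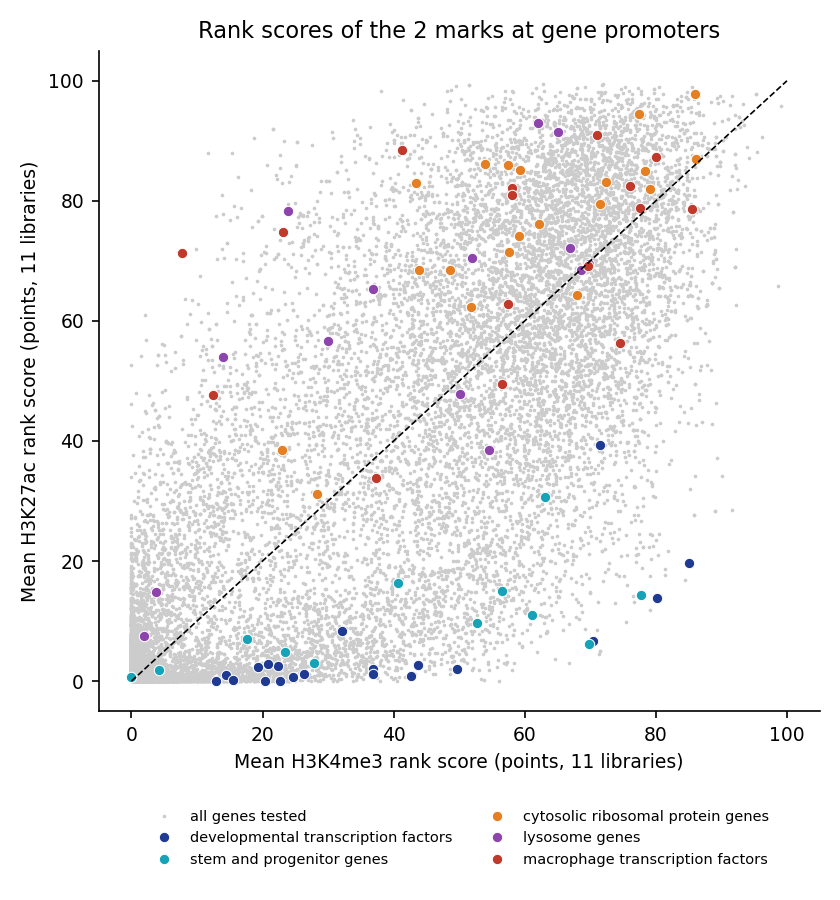
Mean rank score of each promoter for H3K4me3 (horizontal axis, points) and H3K27ac (vertical axis, points) over 11 libraries each, grey for the 15838 genes tested, colours for 5 gene lists and a dashed line where both are equal. All 20 developmental transcription factors lie below the line, as do all but 1 of the 12 stem and progenitor genes, while ribosomal protein genes lie mostly above it.

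Macrophage transcription factors ranked high for both marks, and where the marks differed it was mostly toward H3K27ac. Of 17 genes 16 were tested, 7 ranked higher for H3K27ac and 1 for H3K4me3, against 23.5% and 23.6% of all genes tested, with a median difference of 6.84 points. Id2, an inhibitor of helix-loop-helix factors, scored 21.6, 84.6 and 99.1 points for H3K27ac and 0, 0 and 77.7 points for H3K4me3 (lowest, median and highest), and the ranges overlapped. Its difference of 63.6 ± 8.56 points (SE, n = 11 pairs; limma, adjusted p = 0.000111) was the largest of the list. Klf6 and Cebpb, both induced in activated macrophages, differed by 51.7 and 47.3 points, and the cholesterol sensor gene Nr1h3 (LXRα) by 35.2 points. Spi1, which encodes PU.1, had medians of 92.5 points for H3K27ac and 65.2 points for H3K4me3 and a difference of 22.8 points (limma, adjusted p = 0.00319). Egr2 was the member that ranked higher for H3K4me3, by −18.3 points. With peaks ranked by fold the counts were 7 and 0. Tfec had no promoter peak of either mark in any list.

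Macrophage surface genes ranked lower for either mark. Of 15 tested, 6 ranked higher for H3K27ac and 2 for H3K4me3, against 23.5% and 23.6% of all genes tested. The counts were 6 and 0 by fold and 1 and 2 over the upper 6505 positions, so the balance depended on the scoring. The median difference was 5.86 points, with median scores over the list of 26.3 points for H3K27ac and 4.25 points for H3K4me3. Cd68, a lysosomal glycoprotein, scored 19.2, 36.3 and 89.0 points for H3K27ac and 0, 0 and 46.7 points for H3K4me3. It had a top H3K4me3 peak in 1 library, as did Laptm5, Tyrobp and Csf1r. The H3K4me3 lists held 2 to 9 members among their top peaks, with a median of 2. Cd14, the LPS co-receptor, Laptm5, Tyrobp and Csf1r, the receptor of macrophage colony-stimulating factor, also ranked higher for H3K27ac, by 35.6, 31.0, 27.3 and 21.7 points. Fcgr3, a low-affinity IgG receptor gene, went the other way with H3K4me3 scores of 95.5 to 100 points and H3K27ac scores of 41.1 to 83.5 points, which did not overlap. Its difference was −32.9 ± 4.36 points (SE, n = 11 pairs; limma, adjusted p = 0.000102). Mertk, a receptor for apoptotic cells, differed by −23.2 points (adjusted p = 0.0432).

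Inflammatory genes ranked low for both marks in the absence of a stimulus, with 5 of 15 tested members higher for H3K27ac, 1 higher for H3K4me3 and a median difference of 7.11 points. The shares over all genes were 23.5% and 23.6%, not far from that for H3K27ac here. Cxcl2, a neutrophil chemokine, scored 18.4, 43.5 and 69.3 points for H3K27ac and 0, 0 and 15.2 points for H3K4me3, without overlap, a difference of 42.8 ± 4.65 points (SE, n = 11 pairs; limma, adjusted p = 2.8e-05). Cxcl1, Il27, Tnf and Ccl4 differed by 20.2, 19.2, 15.1 and 14.4 points. Tnf scored 71.7 points in its highest H3K27ac library and a median of 8.67 points, and its adjusted p was 0.0457. Nos2, which encodes inducible nitric oxide synthase, ranked higher for H3K4me3 by −25.8 points, with medians of 22.8 points for H3K27ac and 44.8 points for H3K4me3. Without control pairs 5 and 6 the counts were 4 and 1, and when only the upper 6505 positions were scored 0 members were called. Il6, which encodes interleukin-6, had a promoter peak in 0 of the 22 lists and was not tested.

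Ribosomal protein and lysosome genes had calls toward H3K27ac and none toward H3K4me3 in the comparison by −log10 p. Of 20 cytosolic ribosomal protein genes, 10 ranked higher for H3K27ac and 0 for H3K4me3, against 23.5% and 23.6% of all genes tested, with a median of 13.9 points. The count for H3K27ac was 17 when peaks were ranked by fold, 8 by exact permutation, 7 without the pair block and 6 over the upper 6505 positions, with 0 for H3K4me3 in each. Counts over all genes by fold and by exact permutation are not reported here, so 17 and 8 have no background share. Rps23 scored 70.3, 80.0 and 98.8 points for H3K27ac and 0, 39.7 and 86.4 points for H3K4me3, and its difference was 39.7 ± 6.05 points (SE, n = 11 pairs; limma, adjusted p = 0.000254). Rpl19 differed by only 11.8 points but in 11 of 11 pairs, with medians of 98.7 and 87.0 points, and Rpl7 had a difference of −3.70 points and was not called. Lysosome genes gave 7 higher for H3K27ac and 0 for H3K4me3 of 14 tested, against the same 23.5% and 23.6%, with a median of 14.9 points, and 4 and 1 over the upper 6505 positions. Hexa, a subunit of β-hexosaminidase, scored 53.9, 82.8 and 89.1 points for H3K27ac and 0, 16.3 and 67.5 points for H3K4me3, a difference of 54.3 ± 6.62 points. The lysosomal membrane genes Lamp2 and Lamp1 differed by 39.9 and 31.0 points.

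Glucose uptake and glycolysis genes showed little preference: 2 of 16 ranked higher for H3K27ac and 1 for H3K4me3, below the 23.5% and 23.6% of all genes, with a median of 1.25 points. Hk1, the hexokinase of most tissues, carried both marks in 11 of 11 libraries and scored 42.5, 61.3 and 82.6 points for H3K27ac and 46.5, 62.8 and 97.0 points for H3K4me3. The ranges overlapped almost fully, and the difference of −3.10 ± 3.09 points (SE, n = 11 pairs) was not called (limma, adjusted p = 0.435). Aldoa and Pgk1 ranked higher for H3K27ac by 32.9 and 10.1 points, and Gapdh ranked higher for H3K4me3 by −22.8 points.

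Of the 17 genes for writers and erasers of the 2 marks, 5 ranked higher for H3K27ac and 2 for H3K4me3, with a median of 3.55 points. The former share was near the 23.5% of all genes and the latter below the 23.6%. Ep300, which encodes the acetyltransferase p300, had H3K27ac scores of 94.6 to 100 points and H3K4me3 scores of 33.1 to 94.3 points, which did not overlap, and differed by 24.0 points. Kdm5c, an H3K4 demethylase gene, and Setd1a and Kmt2b, H3K4 methyltransferase genes, differed by 25.5, 20.3 and 18.6 points, and the deacetylase gene Hdac1 by 17.2 points. Hdac3 and Kdm5b, another H3K4 demethylase gene, ranked higher for H3K4me3 by −33.9 and −31.5 points. Of 7 alternative activation genes tested, 1 was called in each direction, below the 23.5% and 23.6% of all genes. These were Il4ra at 24.9 points and Ppargc1b at −25.0 points.

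Lists of other blood and tissue cells are given for comparison, to be read beside the 23.5% and 23.6% of all genes called for H3K27ac and H3K4me3. T cell genes had 0 of 7 tested higher for H3K27ac and 3 higher for H3K4me3, led by Gata3, the factor of type 2 helper cells, at −56.0 points without overlap between the marks. B cell genes had 1 and 2 of 7, with Vpreb1 at 23.4 points and the B lineage factor Pax5 at −43.6 points. Vpreb1 had a top H3K27ac peak in 11 of 11 libraries. Erythroid genes had 2 and 2 of 7, with Ank1 and Tal1 at 29.3 and 28.3 points. Epor, the erythropoietin receptor gene, and Klf1 were at −39.1 and −19.5 points. Neutrophil granule genes had 1 and 2 of 7, with Cebpe at 22.3 points and Prtn3 at −30.7 points. Fibroblast and endothelial genes had 0 and 1 of 7, with Kdr, the receptor gene of vascular endothelial growth factor, at −37.1 points. In the H3K27ac lists 0 to 1 of 9 fibroblast and endothelial genes had a top peak. The counts were 2 to 3 of 12 for erythroid genes and 1 of 10 for B cell genes. They were 0 to 1 of 10 for T cell genes and 0 to 2 of 12 for neutrophil granule genes. The part of other cells in the results above was not tested.

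**Figure D4:**
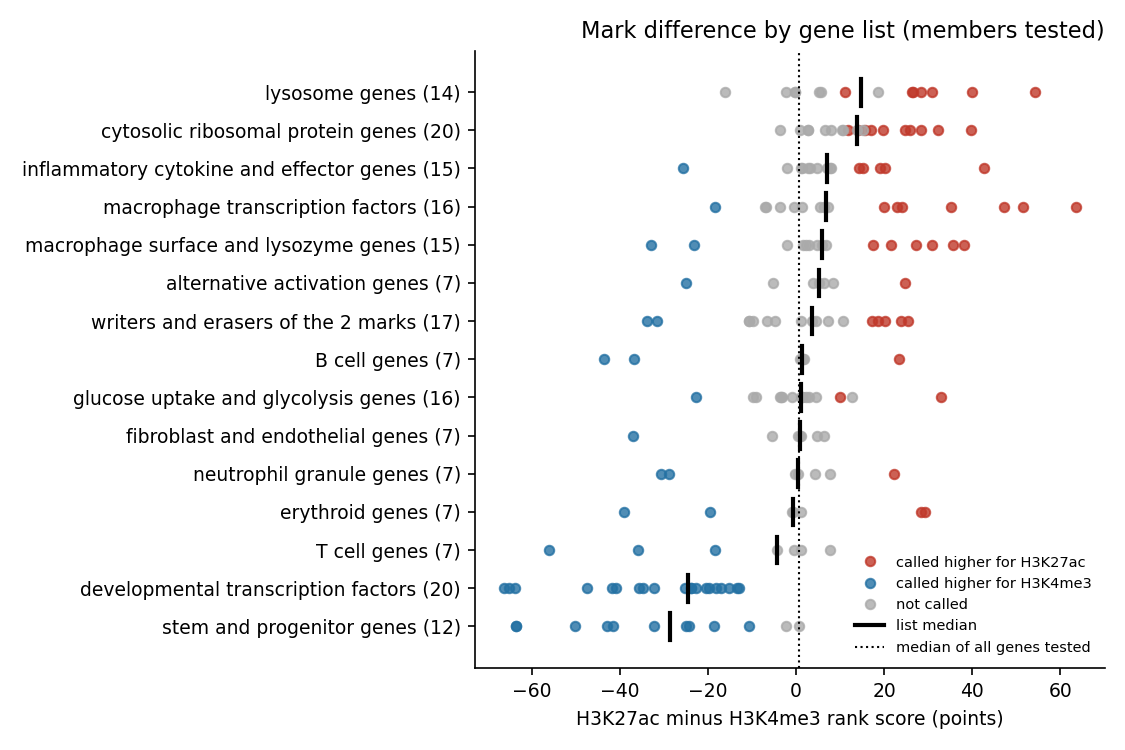
H3K27ac minus H3K4me3 rank score (points) of each tested member of the 15 gene lists, red where called for H3K27ac, blue where called for H3K4me3 and grey where not called, with a black bar at the list median. The dotted line marks the median of all 15838 genes, 0.73 points; the developmental list lies wholly to its left, with a median of −24.6 points.

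Distal sites were compared as regions, made by merging the top 10000 peaks of the 22 lists and kept when at least 2 libraries overlapped them. Of 16489 regions, 3329 were distal. Counted on the full lists, 2060 of these (61.9%) carried both marks in at least 9 libraries each, 108 carried H3K27ac only and 29 carried H3K4me3 only. The other 1132 (34%) were in between. Counted on the top peaks, 65 carried both, 172 carried H3K27ac only, 78 carried H3K4me3 only and 1247 carried neither. The other 1767 (53.1%) were in between. Most of these 3329 regions, which leave out other distal peaks, thus carried a peak of some strength for both marks. Strong peaks of both were seldom found in at least 9 libraries each, but most distal regions fell in between by this rule. Of 13160 promoter regions, 5069 carried both among the top peaks and 6117 were in between.

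Scored like promoters, H3K27ac ranked higher at 1632 distal regions (49% of 3329) and H3K4me3 at 960 (28.8%), with a median difference of 11.95 points. The regions were built from top peaks, of which the H3K27ac lists held more at distal sites, so this excess restates the larger distal share and is no separate result. Regions built from the top 20000 peaks, 42648 of all kinds against 16489, gave 6987 and 6374 distal calls (H3K27ac, then H3K4me3). In proportion, the excess of H3K27ac calls was thus much smaller there than with 1632 and 960 in the main setting. At promoter regions the shares were 29.8% and 32.2%, with a median of 0.64 points, and over all 16489 regions tested they were 33.6% and 31.5%. Without control pairs 1, 5 and 6 the distal counts were 1427 and 868. The distal regions called for H3K27ac lay more often in introns, 46.1% against 19.9% of those called for H3K4me3, and less often in exons, 9.56% against 24.2%. Their median width was 1480 bp against 1277 bp, and 54.2% against 50.6% lay over 10 kb from a start site. Median scores were low throughout, 29.8 points for H3K27ac in the regions called for it and 30.5 points for H3K4me3 in those called for it.

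Of the 5 distal regions with the lowest p for H3K27ac, 2 lay side by side near Junb, an AP-1 factor gene of activated macrophages. The region at chr8:84981014-84984015, 2296 bp from the nearest start site, scored 54.2, 91.8 and 98.3 points for H3K27ac and 0, 3.0 and 15.0 points for H3K4me3 (lowest, median and highest). The region at chr8:84984109-84986544, nearest to Hook2, differed by 70.6 points. The largest difference was at chr8:123879452-123883807 in an intron of Gm20388, with Acta1 as the nearest named gene, where H3K27ac scored 61.6, 84.9 and 98.7 points and H3K4me3 0, 0 and 10.3 points. This difference was 79.3 ± 5.28 points (SE, n = 11 pairs; limma, adjusted p = 1.16e-12). The regions near Cstad (chr2:30654542-30661865, intergenic) and Sema3b (chr9:107611196-107613131) differed by 75.7 and 72.2 points. The marks did not overlap at any of these 5.

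Of the 5 distal regions with the lowest p for H3K4me3, 2 overlapped exons and 3 were intergenic. The region at chr15:102691785-102693537, intergenic and nearest to Calcoco1, scored 0, 5.39 and 26.3 points for H3K27ac and 51.6, 73.1 and 98.7 points for H3K4me3, a difference of −68.3 ± 5.24 points (SE, n = 11 pairs; limma, adjusted p = 1.03e-11). The region at chr9:55543435-55547315 overlapped an exon of Isl2, a LIM-homeodomain factor gene of motor neurons, and differed by −65.4 points. It lay 1099 bp from the nearest start site, just past the 1000 bp limit of a promoter. The region at chr3:98426882-98429029 overlapped an exon of Zfp697 and differed by −57.3 points. Those near Gm21863 (chr12:20232567-20234829) and Gm21860 (chrY:90737304-90740560) differed by −74.8 and −70.6 points, and only at the last did the ranges overlap. The regions near predicted genes may share reads with near-identical copies, so their scores are uncertain.

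CpG content differed between the sites called for each mark, in the median at distal regions and only at the low end at promoter regions. In the 300 bp at the centre of a region, the median CpG ratio was 0.294 for the 1632 distal regions called for H3K27ac, 0.690 for the 960 called for H3K4me3, 0.493 for those not called and 0.432 for all. A ratio under 0.4 was found in 69.6% of the first and 13.5% of the second. The Cstad region printed above, with a ratio of 1.11, was an exception among those called for H3K27ac. At promoter regions the medians were 0.813, 0.819 and 0.817, and a ratio under 0.4 was found in 13.9% of those called for H3K27ac, 2.50% of those called for H3K4me3 and 4.35% of those not called. The C and G content of distal regions was 57.3% for H3K27ac and 63.7% for H3K4me3.

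At gene promoters the order by CpG ratio was not simple. The median over the 250 bases before and 50 after the start site was 0.795 for genes called for H3K27ac, 0.744 for those called for H3K4me3, 0.691 for those not called and 0.729 for all genes tested. When genes were split by ratio into 5 groups of equal size, in the highest group 31.6% were called for H3K27ac and 22.4% for H3K4me3, and in the middle group 21.1% and 29.99%. The lists spanned this range, with median ratios of 0.659 for developmental transcription factors, 0.756 for ribosomal protein genes and 0.221 for macrophage surface genes. The 10032 genes with a top peak of either mark in at most 2 libraries had a median of 0.228. How far CpG content accounts for the mark differences was not tested.

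**Figure D5:**
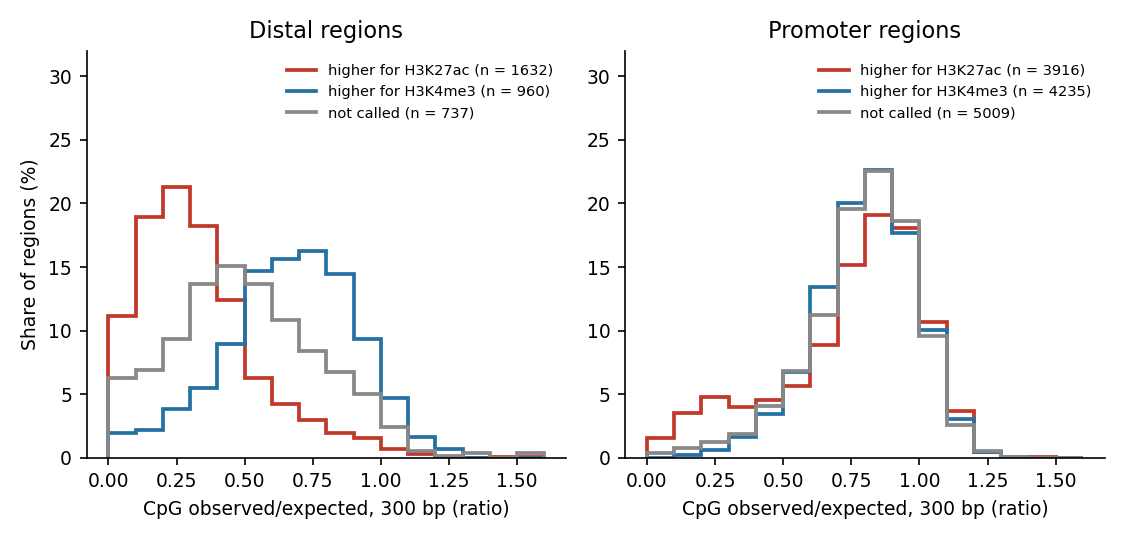
Share of regions (vertical axis, %) by CpG observed over expected in the central 300 bp (horizontal axis, ratio), for distal regions (left) and promoter regions (right), with 1 line for regions called for H3K27ac, for H3K4me3 and not called. The distal curves separate, with medians of 0.294 for H3K27ac and 0.690 for H3K4me3, and the promoter curves have near-equal medians of 0.813 and 0.819 but part below 0.4, where 13.9% of H3K27ac and 2.50% of H3K4me3 regions lie.

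Of 6 short motifs searched in the central 300 bp of distal regions, 5 were more frequent in those called for H3K27ac than in those called for H3K4me3. Both strands were searched for exact letters. The AP-1 motif TGANTCA was in 7.41% of regions called for H3K27ac, 2.71% of those called for H3K4me3 and 5.62% of all distal regions. The RUNX motif TGTGGT was in 21.1%, 9.90% and 16.7%, and the PU.1 motif GAGGAAGT in 2.39%, 1.35% and 1.8%. The C/EBP motif TTGCNNAA was in 7.48%, 5.52% and 6.82%, and the TATA box letters TATAAA, which are not particular to macrophages, in 5.94%, 3.54% and 4.84%. In contrast, the longer core motif of the insulator protein CTCF was the other way around with 9.50%, 12.7% and 11.1%. These are letter matches in regions of different base content, not measured binding.

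No difference in the contrast between the marks was detected between diabetic and control mice. The distal share difference was 1.91 ± 1.58 points in the 5 diabetic pairs and 3.85 ± 2.21 points in the 6 control pairs (SD), and the diabetic minus control value of −1.94 points gave an adjusted p of 0.282 (exact permutation of the disease label over 462 arrangements, two-sided, adjusted over 3 measures). The promoter share differences were −0.553 ± 1.41 and −1.59 ± 1.00 points (exact permutation test, adjusted p = 0.282), and the rank correlations 0.610 ± 0.0647 and 0.595 ± 0.114 (exact permutation test, adjusted p = 0.799). With limma, 0 of 15838 genes and 0 of 16489 regions had a mark difference that depended on disease. At an unadjusted p under 0.05 there were 744 genes and 819 regions, and the lowest adjusted p was 0.961 for genes and 0.175 for regions. With 5 and 6 pairs, small differences could not have been detected.

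The distal excess of H3K27ac in unstimulated BMDM was set against that in the other cell states of the series. These tests permuted cell state labels over pairs as if independent, and did not use the disease and replicate numbers that the states share. In lineage-depleted marrow, labelled as hematopoietic stem cells (HSC), the distal share of the top 10000 peaks differed by −2.01 ± 3.40 points (SD, n = 12 pairs), with H3K27ac higher in 2 of 12 pairs. Unstimulated BMDM exceeded this by 4.98 points (100000 permutations, two-sided p = 0.00056, adjusted over 2 comparisons p = 0.00112). This held without control pairs 1, 5 and 6 (4.26 points, adjusted p = 0.00962) but not over the top 20000 peaks (1.48 points, adjusted p = 0.358), and in the full lists it had the opposite sign (−14.1 points, adjusted p = 0.00278). HSC pairs also had longer H3K27ac than H3K4me3 lists, with a mean log2 ratio of 0.81 against −0.25 in unstimulated BMDM, and the part of list length in this difference was not tested.

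In BMDM given LPS+IFN-γ the distal difference was 4.59 ± 2.50 points (SD, n = 12 pairs), with H3K27ac higher in 12 of 12. The value in unstimulated BMDM was lower by −1.63 points, which did not pass the test (100000 permutations, adjusted p = 0.109). Shared replicate numbers were not used here either, and LPS+IFN-γ diabetic pair 3, the highest at 10.2 points, had no unstimulated partner. Without unstimulated control pairs 1, 5 and 6 the difference between the states was −2.34 points (permutation test, adjusted p = 0.0273). These pairs were chosen because their H3K27ac libraries resembled stimulated cells, and the LPS+IFN-γ pairs with the same numbers stayed in. Leaving them out can by itself move the value away from that of stimulated cells, so this p cannot decide whether the states differ. Without unstimulated control pair 1 alone, 1 of the pairs so chosen, the difference was −2.05 points (permutation test, adjusted p = 0.0353). Without LPS+IFN-γ control pair 5 it was −1.81 points (adjusted p = 0.0832), and without that pair and unstimulated control pairs 1, 5 and 6 it was −2.53 points (adjusted p = 0.0206). The same limit applies to these values, since LPS+IFN-γ control pair 5 was also chosen by likeness.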

How the data were processed

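Chromatin immunoprecipitation followed by sequencing was analysed from the deposited peak lists of 11 H3K27ac and 11 H3K4me3 libraries, sequenced as single reads. The submitters' processing notes name Trim Galore 0.3.3, cutadapt 1.8, FastQC 0.11.3, Bowtie2 2.2.6, Picard 2.18.14 and 2.19.2, bedtools 2.19.1, MACS2 2.2.7.1 and the builds GRCm38 and mm10. In the deposited lists the authors give each peak a score, a fold enrichment over the local background (a ratio), a −log10 p and a −log10 q. Each peak name pairs the library with the input of the same cells, and both libraries of a pair name the same input. The lowest −log10 q was 1.30, so the lists had been filtered near a q of 0.05. The lists give no read totals, which leaves depth and counting intervals unknown. Input samples were not used.

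Intervals listed with several summits were taken as 1 peak, which turned 3229665 summits into 2676422 peaks. Start sites (93513 of 21938 protein-coding genes) came from GENCODE release M21. An overlap of 1 bp counted. The −log10 p ranked peaks within a list only. Levels in different libraries were never compared. Rank scores ran from 100 to 0 over the 13011 first genes or the 14503 first regions. Tests used limma 3.58.1 in R 4.3.3, after being tested on simulated data, and exact permutation tests in Python 3.11.15 with numpy 2.4.6, pandas 2.3.3 and scipy 1.17.1. The smallest p the paired test can give is 0.000977, and that of the disease test is 0.00216. Mice are the replicates per the study's methods.

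The H3K27ac and H3K4me3 libraries with the same disease group and replicate number were treated as pairs. In all 11 pairs the deviations from the mark means correlated above 0.1 (0.171 to 0.474) and were highest for the library's own partner.

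Named features are the 10 genes with the lowest p in each direction among those called (predicted genes skipped), the 5 such distal regions, the highest and lowest members of 15 gene lists, and Il6 and Hk1, whose tracks the study shows. Further list members were named for their known roles after their values were seen, and some members the rule names are not reported here. Members and lists were chosen with earlier results of these data known. Cxcl11 is not among the protein-coding genes used. Alternatives covered list length, ranking column, window, overlap, scoring depth, the pair block and libraries left out.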

Additional observations from a re-analysis of the deposited data

Results flagged for a closer look

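In the H3K27ac libraries of control mice, replicate 1 stood apart in 2 measures. Its promoter share was 36.5% of genes, with the nearest of the other 5 control libraries at 39.8%. Its distal share was 19.7% of the top 10000 peaks, with the nearest at 13.03%. The gap was 0.661 and 0.642 of the range of the 6 libraries, above the critical value of 0.625. These were 2 of 22 groups examined, and chance alone singles out about 1 in 20.

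The difference in distal share between the marks was larger in unstimulated BMDM than in HSC by 4.98 percentage points, a difference that passed its own test.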

How the results depend on the processing

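No read totals were available, so what depth limits could not be computed. Results for distal and promoter shares rest on ranking by −log10 p within the top 10000 peaks. Over the full lists the distal share difference was −2.03 points, its disease difference 3.70 and its excess over HSC −14.1, each reversed. Ranked by fold, reversed values were −10.75 points for the distal share, 6.19 for the promoter share, −1.345 and 2.44 for the disease differences in promoter and distal share, −4.14 for the excess over HSC and 3.76 points for Hk1, while distal width passed at 0.29 (log2) and the rank correlation was 0.327. Over the top 20000 peaks the excess over HSC was 1.48 and the correlation 0.356. Regions rebuilt from these peaks, 42648 of all kinds, gave 6987 and 6374 distal calls (H3K27ac, then H3K4me3). The excess of H3K27ac calls was smaller in proportion than in the main setting. The promoter share lost its call with summits in the window (−0.816), 500 bp windows (−0.988) and no replicate block (−1.12, adjusted p = 0.209), and without control pairs 5 and 6 (−0.895). Promoter width passed without those pairs (0.20). Removing the block changed no other call on a share or width, and gave 3177 and 3440 promoter calls. Without control pairs 5 and 6, list counts (H3K27ac, then H3K4me3) were 5 and 1 for macrophage surface and 4 and 1 for inflammatory genes. They were 8 and 0 for ribosomal protein, 6 and 0 for lysosome and 1 and 1 for glycolysis genes. For B cell, T cell and developmental genes they were 0 and 2, 0 and 2, and 0 and 19. The other lists kept their counts.

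Chosen after seeing the data, leaving out control pairs 1, 5 and 6 gave −0.688 for the promoter share, 0.16 for promoter width, −0.0417 for the disease difference in rank correlation and −2.34 for the distal share against LPS+IFN-γ, or −2.53 when LPS+IFN-γ control pair 5 was also left out. Promoter calls numbered 2102 and 2280 in control pairs only, with fewer samples, and 1473 and 1412 in diabetic pairs only, where distal calls were 982 and 599. Scoring only the upper positions, which tests fewer features, gave 2111 and 1867 promoter calls over 11098 genes tested and 162 and 130 distal calls.

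With 1 pair left out at a time, the promoter share difference ran from −1.32 to −0.953, promoter width from 0.0987 to 0.162 (log2), the disease difference in rank correlation from −0.0153 to 0.0520 and the distal share against LPS+IFN-γ from −2.05 to −1.31. The distal share difference kept its call each time (2.55 to 3.28), as did its excess over HSC (4.56 to 5.29). Of 578 alternative values for named genes and regions, 577 kept direction and side of the threshold. Apart from the settings named, the cause of these changes was not tested.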
